A study of Rattus norvegicus with 84 samples.

Results

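Potassium channel genes were examined in bulk RNA of the rat nucleus accumbens. They were chosen by symbol, as the pore-forming and auxiliary Kcn families from Kcna to Kcnv, and by level: a member needed a mean of at least 1 CPM (a count divided by the depth of its library) over all 84 libraries. Of 89 genes with a matching symbol, 88 were members, out of 41919 genes in the table. Kcne5, at a mean of 0.748 CPM, was just outside this line, and Kcnj13 at 1.73 CPM and Kcnk7 at 1.76 CPM were just inside it.

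The RNA came from wild-type Long-Evans rats, from the Shell or the Core of the nucleus accumbens. Each subregion had 6 groups of 7 libraries, in which animals labelled Coc or Sal were in the conditions labelled Ext, Ctx or HC: Ext_Coc, Ext_Sal, Ctx_Coc, Ctx_Sal, HC_Coc and HC_Sal. The series describes cocaine abstinence by withdrawal or extinction. It does not spell out Ctx and HC, nor say how drug was given, the age of the rats or whether each library is 1 animal. A p-value here therefore reflects how these libraries vary, which may in part be technical. Titles place libraries in numbered series (3 and 4 in Shell, 1 and 2 in Core) and in a series F that holds 12 libraries of each subregion, so numbered series and subregion cannot be told apart.

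Potassium channels let potassium leave or enter the cell and so set the resting potential, end the action potential and pace firing. Voltage-gated channels open on depolarisation, and silent subunits carry no current alone but alter the channels they join. KCNQ and EAG-related channels give slow, subthreshold currents. Other families open with calcium or sodium, pass inward current near rest (inward rectifiers) or leak steadily (two-pore channels), and auxiliary subunits tune gating. In striatal projection neurons, which are the main cells of the accumbens, inward rectifiers hold a very negative resting potential, while A-type and Kv1-type currents delay the first spike.

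The 88 members comprised 17 voltage-gated alpha subunits, 10 silent modifiers, 13 KCNQ and EAG-related genes, 8 calcium- or sodium-activated genes, 15 inward rectifiers, 14 two-pore genes and 11 auxiliary subunits. Libraries held 13.6 to 22.5 M counts (M, mega), of which the members took 0.654% ± 0.045 (SD, n = 84). The lengths behind the deposited FPKM (fragments per kilobase of gene, scaled to depth) span introns, and the kit sequences unspliced RNA too, so a level here is a level over the whole gene body. A background rate was therefore read from 1845 olfactory and vomeronasal receptor genes, which are known from sensory neurons of the nose. The pooled FPKM of those genes had a median of 0.195 and ranged between 0.0138 and 0.826. The highest value belonged to a single library, Core Ctx_Coc 17-F, in which 0 members exceeded 2 times the receptor rate. Results are therefore given with and without 17-F.

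Per length, Kv1-type genes and a silent subunit led the family. Kcna1, whose product clusters on axons and limits firing, averaged 8.23 ± 1.75 FPKM (SD, n = 84) and was 39.7 times the receptor rate (median of libraries). Kcnf1, a silent partner of Kv2 channels, averaged 6.91 ± 1.42 FPKM, or 36.2 times. Kcna2, the usual partner of Kcna1, averaged 4.12 ± 0.823 FPKM. Kcna1, Kcnf1 and Kcna2 span 8.68, 2.68 and 13.8 kb, introns included, so this order need not be that of spliced RNA.

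**Figure D1:**
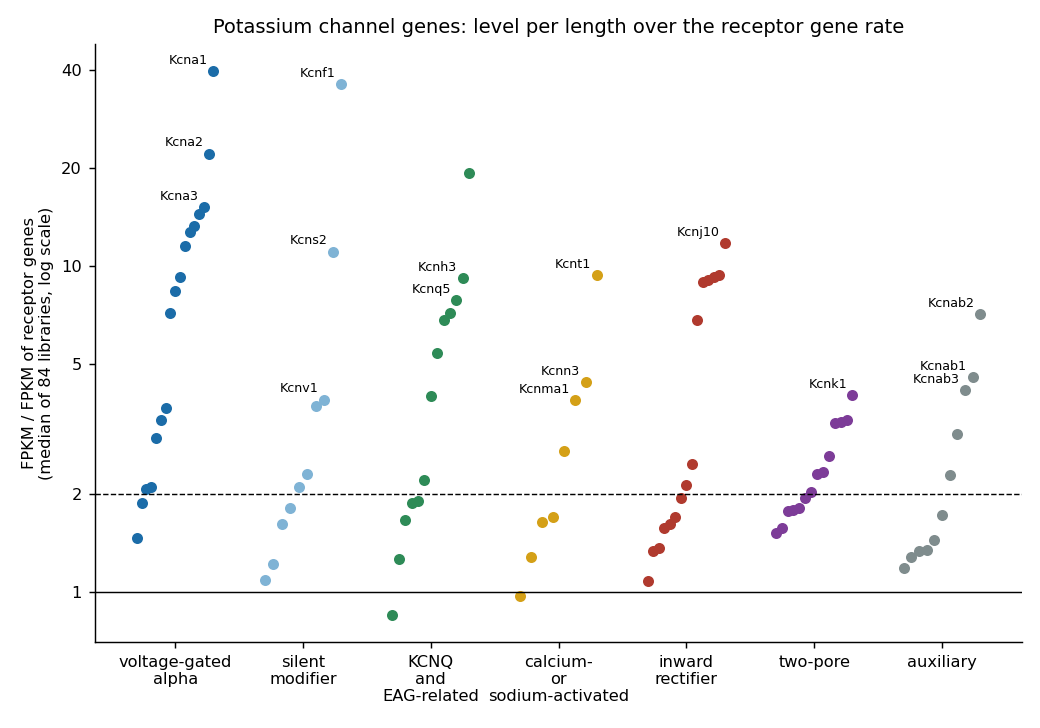
Median over 84 libraries of each member's FPKM divided by the pooled FPKM of receptor genes (log axis), by class, with each point a gene. The solid line marks the receptor rate and the dashed line 2 times that rate: 54 of 88 members lie above the dashed line and Kcna1 is highest at 39.7.

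Classes differed in how far they stood above that rate. In the voltage-gated alpha class 15 of 17 genes exceeded 2 times the receptor rate, as did 8 of 13 KCNQ and EAG-related genes, 8 of 15 inward rectifiers and 8 of 14 two-pore genes. Among inward rectifiers Kcnj10, the main astrocytic one, was highest at 2.24 ± 0.246 FPKM, followed by Kcnj4 and Kcnj2, strong rectifiers of neurons, at 1.89 ± 0.284 and 1.85 ± 0.382 FPKM. Two-pore genes were all low, with Kcnk1 leading at 0.775 ± 0.112 FPKM.

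Counts give another order, because long genes collect more reads. Kcnq5, an M-current subunit, and Kcnd2, the A-type subunit of dendrites, averaged 874 and 865 CPM over genes of 565.8 and 501.9 kb, and their levels per length were 1.54 and 1.72 FPKM. Of all members, 32 were between 1 and 2 times the receptor rate. As a median over all libraries Kcnt2 (0.97 times) and Kcnh8 (0.85 times) did not exceed it, although Kcnt2 exceeded it in 39 of 84 libraries.

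Member levels also differed between libraries of low and higher background. In 15 libraries the receptor rate was under 0.05 FPKM, a line chosen after seeing the data: 13 were Core (5 of series 1 and 8 of series F) and 2 were Shell (series F). In these, 79 members exceeded 2 times the receptor rate, and 36 members were at under 0.5 times their median in the other 69 libraries. Kcnj1, known from kidney tubules, had a median of 0.021 FPKM in the 15 libraries and 0.297 FPKM in the other 69. Kcnu1, known from sperm, had 0.0242 and 0.266 FPKM, and Kcnv2, known from photoreceptors, had 0.0171 and 0.228 FPKM. These 3 were at 0.69 to 1.01 times the receptor rate there, and Kcnt2 was at 3.31 times. In contrast, 23 members had a higher median in the 15 libraries, among them Kcnv1 (1.05 against 0.714 FPKM), Kcna4 (3.72 against 2.59 FPKM) and Kcna1 (10.9 against 7.80 FPKM). Because 13 of the 15 libraries are Core, low background and subregion overlap in these data.

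**Figure D2:**
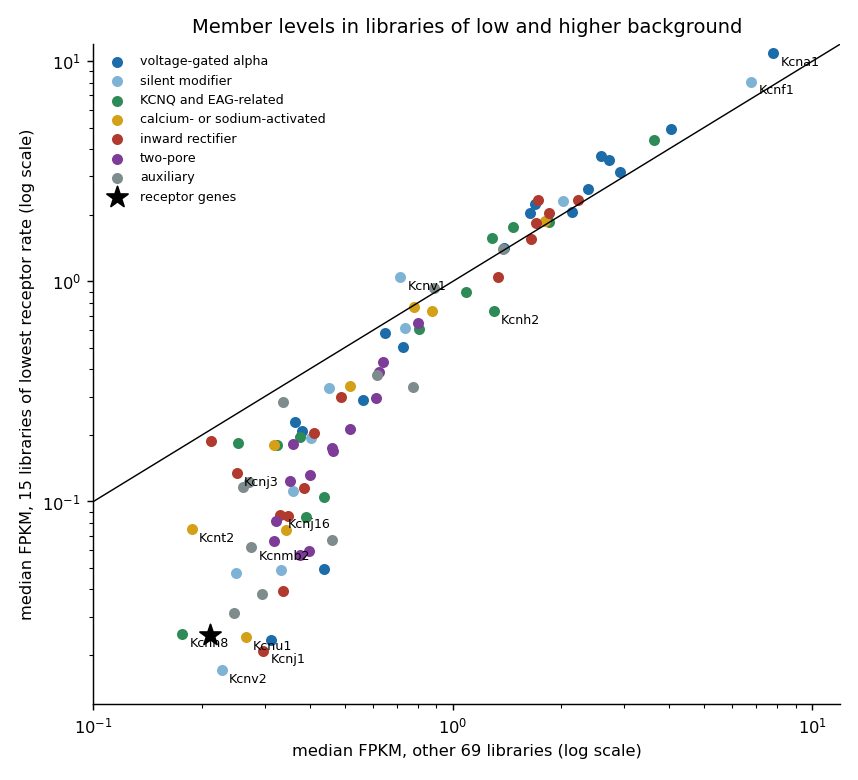
Median FPKM of each member in the 15 libraries of lowest receptor rate (vertical axis) against the other 69 (horizontal axis), both log scaled, with equality as the line and the receptor genes as the star. Kcna1, Kcna4 and Kcnv1 lie above the line, while Kcnj1, Kcnu1 and Kcnv2 lie beside the star.

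Shell was compared with Core over all 84 libraries, with edgeR's quasi-likelihood test, Benjamini-Hochberg adjustment over 32145 genes and a threshold of 0.05. Of 88 members, 35 passed (39.8%), beside 13.3% of all genes tested: 19 members were higher in Shell (background 4.56%) and 16 were lower (background 8.77%). The median log2 fold change was 0.01 over members and 0.05 over all genes. Folds were small, between 1.11 and 2.01, and the ranges of Shell and Core libraries overlapped for all 35 called members. Of the 19 higher members, 10 exceeded 2 times the receptor rate and 9 did not, whereas of the 16 lower members 15 did and 1 did not. The 9 included Kcnj6 (1.70 times), Kcnh5 (1.66), Kcnn2 (1.64), Kcnk10 (1.57), Kcnj3 (1.34) and Kcnmb2 (1.33). The part of background in this split was not tested.

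Several measured features moved with this contrast. Without library 17-F, the 35 members kept their calls and direction, and 8 more passed, giving 22 higher and 21 lower (all genes 26.3%, with 12.6% higher and 13.7% lower). With the receptor level as a covariate, 54 members passed, 36 higher and 18 lower (all genes 41.3%, with 29.5% higher and 11.8% lower), and 26 of the 35 kept call and direction. Kcna1, Kcnd2, Kcnj4 and Kcnq5, all lower before, then had values slightly above 0. Other called members whose log2 fold change moved by over 1.5 times with this covariate included Kcnv1 (−0.24), Kcng1 (−0.17), Kcnk10 (0.21), Kcnj6 (0.19), Kcnmb2 (0.14) and Kcnh7 (−0.12). Numbered series alone gave 23 members (all genes 9.83%). In series F alone, the only set shared by both subregions, 1 member passed, Kcnk9 (all genes 0.226%). Series F without 17-F gave 13 members, 11 higher and 2 lower (all genes 2.1%), with the median of all genes at a log2 value of 0.40.

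A group of 20 members was called in the same direction in each of the 9 settings that were not limited to series F. Of these 14 were higher in Shell: Kcnj16, Kcnh2, Kcnk9, Kcnc2, Kcnt2, Kcnj3, Kcnab3, Kcnc4, Kcnk3, Kcng3, Kcnn2, Kcnh5, Kcnk2 and Kcnb2. The 6 lower in Shell were Kcnv1, Kcna6, Kcnq3, Kcnh3, Kcng4 and Kcnj12. The share of all genes called in each of the 9 settings was not calculated, so the 20 members have no background beside them. Among single settings, 9.83% of all genes passed in numbered series only and 41.3% with the receptor level as a covariate. The 9 settings include numbered series only, with and without a replicate block. Those hold no library of series F, so series and subregion cannot be told apart in them.

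**Figure D3:**
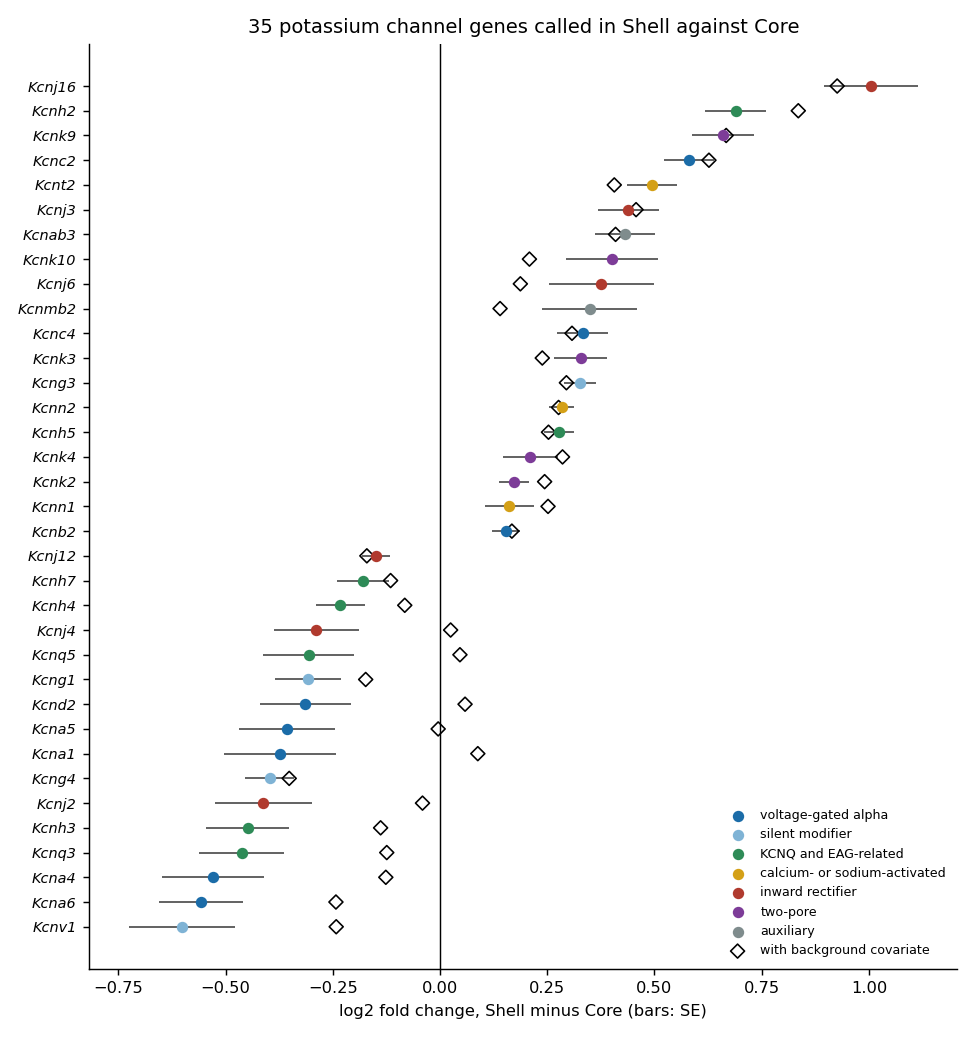
Log2 fold change, Shell minus Core, of the 35 called members (filled points, bars are SE, colours are classes) and the same with the receptor level as a covariate (open diamonds). Kcnj16 is highest at 1.01 and Kcnv1 lowest at −0.60, and diamonds of several lower members lie near 0.

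Stretches of 250 bases before the RefSeq gene start (assembly GRCr8) are shown for 4 of these members: Kcnj16, the gene with the largest fold, Kcng3 and Kcnt2, also higher in Shell, and Kcna6, lower in Shell. Capitals mark the GC box GGGCGG, searched on both strands. The stretches are Kcnj16 (chr10:96517074-96517323, plus strand), Kcng3 (chr6:16803592-16803841, plus strand), Kcnt2 (chr13:54215057-54215306, plus strand) and Kcna6 (chr4:161262353-161262602, minus strand).
Kcnj16: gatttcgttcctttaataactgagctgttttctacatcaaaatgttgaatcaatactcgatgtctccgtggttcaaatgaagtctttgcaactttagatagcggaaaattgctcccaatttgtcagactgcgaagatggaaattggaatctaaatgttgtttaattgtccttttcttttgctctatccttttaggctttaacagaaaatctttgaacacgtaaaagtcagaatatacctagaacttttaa
Kcng3: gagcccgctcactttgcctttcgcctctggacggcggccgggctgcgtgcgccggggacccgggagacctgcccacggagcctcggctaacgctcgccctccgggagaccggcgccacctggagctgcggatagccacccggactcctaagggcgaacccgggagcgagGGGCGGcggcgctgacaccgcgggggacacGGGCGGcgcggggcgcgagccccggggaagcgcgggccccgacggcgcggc
Kcnt2: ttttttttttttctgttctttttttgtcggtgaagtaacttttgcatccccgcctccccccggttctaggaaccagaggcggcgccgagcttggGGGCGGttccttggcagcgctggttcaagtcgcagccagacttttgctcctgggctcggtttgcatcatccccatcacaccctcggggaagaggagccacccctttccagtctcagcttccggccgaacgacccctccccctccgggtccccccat
Kcna6: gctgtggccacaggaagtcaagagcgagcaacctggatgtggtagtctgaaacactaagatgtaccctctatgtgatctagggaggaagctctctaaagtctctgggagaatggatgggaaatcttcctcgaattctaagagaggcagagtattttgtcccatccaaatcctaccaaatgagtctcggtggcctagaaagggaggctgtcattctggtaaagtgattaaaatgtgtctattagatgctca

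The Kcnj16 stretch is rich in A and T (33.6% GC) and the Kcng3 stretch is rich in CG pairs (39 pairs, 78.4% GC), although both genes were higher in Shell. Of 59 members with a promoter in the RefSeq table, 28 (47.5%) had a GC box, beside 32.4% of 27457 promoters. TATAAA was found in 2 of them (3.39%, beside 13.1%), the cAMP element TGACGTCA in 0 (beside 1.70%) and the AP-1 element TGACTCA in 1 (1.69%, beside 3.98%). Member promoters were also richer in GC, at medians of 59.6% and 11 CG pairs, beside 52% and 6 for all promoters. The part of base composition in these shares was not tested. Among members with a promoter, the GC box was in 6 of 12 that were higher in Shell and in 2 of 10 that were lower. Matches are descriptions of these letters and say nothing of binding.

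Inward rectifiers showed the largest single difference. Of 15 such genes, 3 were higher in Shell and 3 were lower (all genes 4.56% higher and 8.77% lower). Under the receptor covariate the class had 7 higher and 1 lower (all genes 29.5% and 11.8%). Kcnj16 makes a pH-sensitive subunit that pairs with the Kcnj10 channel. Its level ranged between 5.05 and 21.3 CPM (median 11.3) in 42 Shell libraries and between 0.908 and 9.63 CPM (median 5.54) in 42 Core libraries. Thus 32 Shell libraries lay above the highest Core library. The log2 fold change was 1.01 ± 0.11 (SE, adjusted p = 7.62e-12), or 2.01-fold, and within series F alone it was 1.40 ± 0.29. Kcnj16 stood at only 1.62 times the receptor rate, and in the 15 libraries of low background its median was 0.0866 FPKM, against 0.331 FPKM in the other 69.

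Among the G-protein-gated rectifiers, which opioid, dopamine D2-type and GABA-B receptors open, Kcnj3 and Kcnj6 were higher in Shell. Kcnj3 ranged between 33.4 and 95.6 CPM (median 41.5) in Shell and between 17.3 and 64.5 CPM (median 31.2) in Core, so that all 42 Shell libraries lay above the Core median. Its log2 fold change was 0.44 ± 0.07 (edgeR adjusted p = 1.87e-06). Kcnj6 had 0.38 ± 0.12, and Kcnj9 and Kcnj5 did not pass, at −0.10 ± 0.10 and 0.10 ± 0.09. Of the strong rectifiers of the Kir2 type, 3 were lower in Shell, with log2 fold changes of −0.41 ± 0.11 for Kcnj2, −0.29 ± 0.10 for Kcnj4 and −0.15 ± 0.03 for Kcnj12. Kcnj14, also of this type, did not pass (−0.05 ± 0.06). With the receptor level as a covariate Kcnj12 stayed at −0.17 while Kcnj2 was at −0.04 and Kcnj4 at 0.02. Kcnj10 did not pass (−0.14 ± 0.09), nor did the pore genes of ATP-sensitive channels, Kcnj11 (−0.08 ± 0.11) and Kcnj8 (−0.03 ± 0.08).

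In the KCNQ and EAG-related class, Kcnh2 and Kcnh5 were higher and Kcnq3, Kcnq5, Kcnh3, Kcnh4 and Kcnh7 were lower in Shell. That is 2 higher and 5 lower of 13 genes (all genes 4.56% higher and 8.77% lower). Under the receptor covariate the class had 5 higher and 3 lower (all genes 29.5% and 11.8%). Kcnh2 encodes the ERG channel, also known for cardiac repolarisation. It ranged between 22.2 and 76.3 CPM (median 46.1) in Shell and between 12.9 and 41.95 CPM (median 27.2) in Core, the lowest Core value being 17-F. Shell libraries exceeded the highest Core library in 28 of 42 cases, and the fold was 1.61 (log2 0.69 ± 0.07, edgeR adjusted p = 1.31e-12). Kcnq3, which pairs with Kcnq5 in the M channel, averaged 359 ± 76.0 CPM in Shell and 501 ± 218 CPM in Core (SD, n = 42 each), with a log2 fold change of −0.46 ± 0.10. Kcnq5 stood at −0.31 ± 0.11, and with the receptor level as a covariate it was at 0.05 while Kcnq3 was at −0.12. Kcnh3 and Kcnh4, of the ELK branch, were at −0.45 ± 0.10 and −0.23 ± 0.06, and Kcnh5, of the EAG branch, was at 0.28 ± 0.04. Under the receptor covariate Kcnh3 was at −0.14 and Kcnh4, no longer called, at −0.08.

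Two-pore genes moved one way where they passed: 5 of 14 were higher in Shell and 0 were lower (all genes 4.56% higher and 8.77% lower). Under the receptor covariate the class had 5 higher and 5 lower (all genes 29.5% and 11.8%). Kcnk9, an acid-sensitive leak channel, ranged between 21.9 and 55.6 CPM (median 29.6) in Shell and between 10.7 and 35.3 CPM (median 19.2) in Core. All 42 Shell libraries lay above the Core median, and its log2 fold change was 0.66 ± 0.07 (edgeR adjusted p = 1.04e-11), or 0.82 ± 0.15 in series F alone. Its close relative Kcnk3 had 0.33 ± 0.06. The mechanosensitive Kcnk10, Kcnk2 and Kcnk4 had 0.40 ± 0.11, 0.17 ± 0.04 and 0.21 ± 0.06.

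Of 17 voltage-gated alpha genes, 3 were higher in Shell, 5 were lower and 9 did not pass (all genes 4.56% higher and 8.77% lower). Under the receptor covariate the class had 8 higher and 2 lower (all genes 29.5% and 11.8%). Among Kv1-type genes Kcna2, Kcna3 and Kcna10 did not pass, at 0.01, −0.22 and 0.17. Kcnc2 and Kcnc4, of the Kv3 type that lets interneurons fire fast, were higher in Shell, as was Kcnb2. Kcna1, Kcna4, Kcna5, Kcna6 and Kcnd2 were lower in Shell. Kcnc2 ranged between 54.8 and 112 CPM (median 75.5) in Shell and between 34.4 and 85.6 CPM (median 47.1) in Core, with all 42 Shell libraries above the Core median. Its log2 fold change was 0.58 ± 0.06 (edgeR adjusted p = 3.74e-13) and that of Kcnc4 was 0.33 ± 0.06, whereas Kcnc1 did not pass, at 0.16 ± 0.10.

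Kcna6, another Kv1-type subunit, ranged between 27.7 and 93.3 CPM (median 52.2) in Shell and between 18.4 and 142 CPM (median 65.3) in Core, 17-F being lowest and the next Core library 40.1 CPM. Its log2 fold change was −0.56 ± 0.10 (edgeR adjusted p = 9.48e-06). The difference was uneven over series. Kcna6 averaged 53.1 ± 8.20 CPM in Shell series 3, 49.0 ± 7.89 CPM in Shell series 4 and 57.3 ± 19.0 CPM in Shell series F. Core series 1 averaged 93.6 ± 26.6 CPM, series 2 averaged 57.7 ± 8.77 CPM and series F averaged 93.9 ± 39.4 CPM. Core series 1 and F are those that hold the low-background libraries. Kcna1 was uneven likewise, with 60.8 ± 13.0 to 70.8 ± 24.2 CPM in the Shell series, 111 ± 40.1 CPM in Core series 1 and 58.2 ± 11.7 CPM in Core series 2. With the receptor level as a covariate Kcna6 was at −0.24 and Kcna4 at −0.13, while Kcna5 was at −0.0043 and Kcna1 at 0.09.

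**Figure D4:**
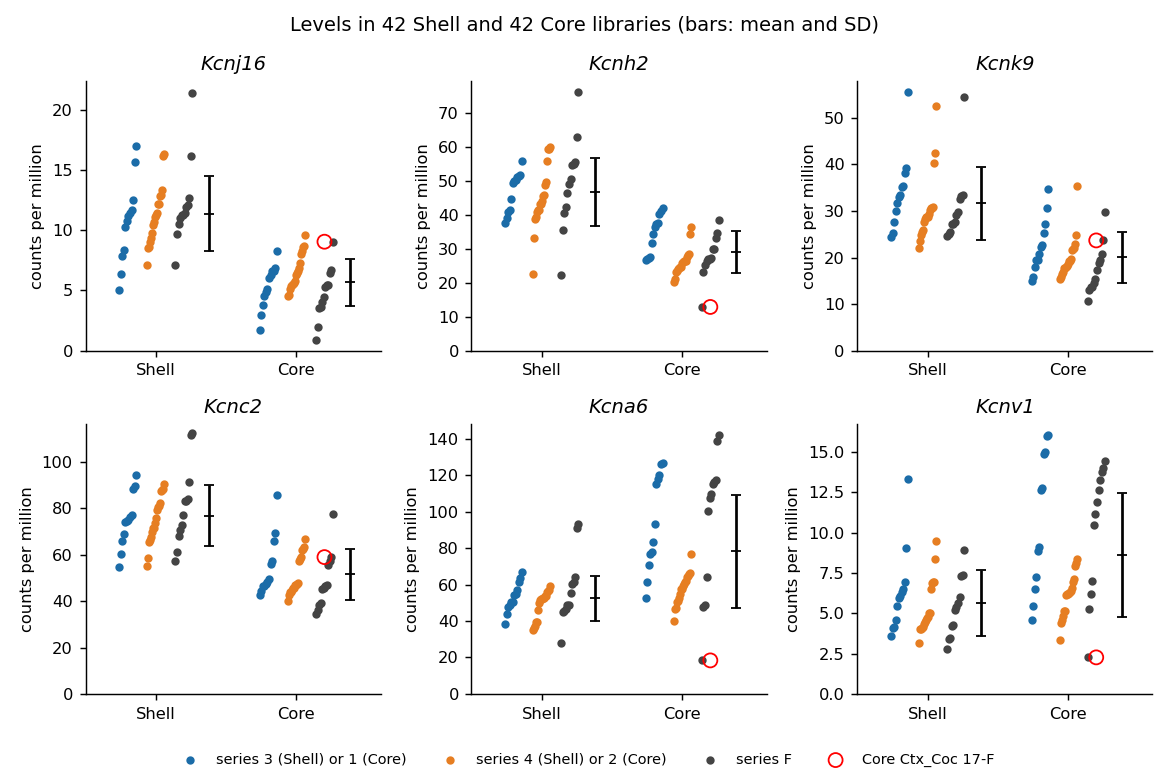
CPM in each of 42 Shell and 42 Core libraries for 6 members, coloured by series, with mean and SD as bars and library 17-F ringed in red. Shell points of Kcnj16, Kcnh2, Kcnk9 and Kcnc2 sit above most Core points, and Core points of Kcna6 and Kcnv1 spread more widely than Shell points.

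Silent modifiers and calcium- or sodium-activated genes gave smaller sets. Of 10 silent modifiers 1 was higher and 3 were lower in Shell. Of 8 calcium- or sodium-activated genes 3 were higher and 0 were lower (all genes 4.56% higher and 8.77% lower). Under the receptor covariate the silent modifiers had 3 higher and 4 lower. The calcium- or sodium-activated genes then had 6 higher and 1 lower (all genes 29.5% and 11.8%). Kcnv1, a silent subunit that inhibits Kv2 and Kv3 channels, ranged between 2.80 and 13.3 CPM (median 5.13) in Shell and between 2.27 and 16.0 CPM (median 7.06) in Core. Its log2 fold change was −0.60 ± 0.12 (edgeR adjusted p = 0.000159), and Kcng4 and Kcng1 were also lower, at −0.40 ± 0.06 and −0.31 ± 0.08. Kcnv1 too was uneven over series, with 10.8 ± 4.27 CPM in Core series 1 and 10.2 ± 4.02 CPM in Core series F. Core series 2 averaged 6.11 ± 1.35 CPM, beside 5.34 ± 1.85 to 6.34 ± 2.66 CPM in the Shell series (SD). Kcng3, another silent partner of Kv2 channels, was higher in Shell at 0.33 ± 0.04, and 41 of 42 Shell libraries were above the Core median. Kcnt2, a sodium-activated channel, was higher at 0.49 ± 0.06 with all 42 Shell libraries above the Core median, and Kcnn2 and Kcnn1, SK channels of the afterhyperpolarisation, were higher at 0.28 ± 0.03 and 0.16 ± 0.06. The calcium-activated Kcnma1 and Kcnn3 did not pass (−0.12 ± 0.07 and −0.05 ± 0.05). Of 11 auxiliary genes, Kcnab3 (0.43 ± 0.07) and Kcnmb2 (0.35 ± 0.11) were higher and 0 were lower (all genes 4.56% higher and 8.77% lower). Under the receptor covariate the auxiliary class had 2 higher and 2 lower (all genes 29.5% and 11.8%).

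Neighbouring genes did not move together in all cases. In the RefSeq order of protein-coding genes, 9 pairs of members lie next to each other. Kcnj16 and its neighbour Kcnj2 went opposite ways, at 1.01 and −0.41. The run Kcna5, Kcna1 and Kcna6 was lower throughout, at −0.36, −0.37 and −0.56, and these became −0.0043, 0.09 and −0.24 with the receptor level as a covariate. Kcna3, Kcna2 and Kcna10, another run, did not pass.

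Genes whose products join these channels were listed separately. Of 28 such partners, 4 were higher in Shell and 5 were lower (median log2 −0.05), beside 4.56% and 8.77% of all genes. Dpp10, which speeds A-type channels, was higher at 0.46 ± 0.07 and Lrrc55, an auxiliary subunit of the BK channel, at 0.45 ± 0.07. Kcnip4, another A-type partner, was lower at −0.75 ± 0.12, and Cntn2, which helps place Kv1 channels on myelinated axons, at −1.21 ± 0.12. With the receptor level as a covariate, 15 partners were higher and 6 were lower (all genes 29.5% and 11.8%).

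Markers of cell types moved with the subregions, and bulk RNA cannot tell fewer cells of a type from less RNA per cell. All 13 oligodendrocyte markers tested were lower in Shell (median log2 −1.74), and their summed level was 1170 CPM at the median (586 to 2339) in Shell and 3231 CPM (245 to 8188) in Core. Oligodendrocyte precursor markers were lower in 7 of 7 cases and microglial markers in 8 of 12. All 5 cholinergic interneuron markers were higher (median 0.60), with sums of 39.0 to 88.2 CPM in Shell and 31.6 to 57.7 CPM in Core. Projection neuron markers, all 12 detected in each library, had 1 higher and 4 lower, GABAergic interneuron markers had 2 of 8 higher and 2 lower, and astrocyte markers had 3 of 12 higher and 2 lower. Of neighbouring cortex markers 1 of 9 was higher, of endothelial and mural markers 1 of 8 each was lower, and of ependymal and choroid markers 0 of 6 passed. The summed cortex markers varied widely between libraries, with 64.5 to 611 CPM (median 101) in Shell and 45.6 to 323 CPM (median 92.5) in Core. The shares of all genes were 4.56% higher and 8.77% lower. With the receptor level as a covariate, projection neuron markers had 6 higher and 1 lower, and their median log2 value was 0.16, against −0.20 without it. Astrocyte markers then had 9 higher and 2 lower, with a median of 0.21, against −0.18 without it. The shares of all genes with that covariate were 29.5% higher and 11.8% lower. The part of these cell types in the channel differences was not tested.

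The drug and condition groups were then compared within each subregion. In 25 comparisons 0 members and 0 genes (0%) passed edgeR's test. They comprised Shell against Core by group, any of 6 groups in each subregion, Coc against Sal in each condition and averaged over conditions, Ext, Ctx and HC against each other within each drug label, and the difference of the drug contrasts between Ext and HC. Members at an unadjusted p under 0.05 numbered between 0 and 17 per comparison, and all genes at that line made up between 0.169% and 15.9% of those tested. The upper ends belong to different comparisons. The 17 members (19.3%) were in Shell Ext_Sal against HC_Sal, with all genes at 5.78%. The 15.9% was in Shell Ctx_Coc against HC_Coc, with 5 members (5.68%). DESeq2 called 0 members, with 0 to 19 at an unadjusted p under 0.05, and 23 genes summed over the comparisons. Groups of 7 libraries limit what can be seen, and a p above the threshold does not show that groups are alike.

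Coc against Sal was read at an unadjusted p under 0.05, beside the share of all genes at that line. Ext_Coc against Ext_Sal had 5 members in Shell (all genes 1.57%) and 0 in Core (0.574%). HC_Coc against HC_Sal had 0 in Shell (1.34%) and 0 in Core (0.593%). Ctx_Coc against Ctx_Sal had 6 of 88 members in Shell, or 6.82% (all genes 4.83%), and 11 in Core, or 12.5% (all genes 10.9%). Without 17-F the Core count was 5, or 5.68% (all genes 1.79%). Median log2 fold changes of members over the 8 comparisons of Coc with Sal ranged between −0.12 and 0.04.

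Kcnmb4, the neuronal auxiliary subunit of the BK channel, had the lowest unadjusted p in Core. It was at 26.6 to 33.2 CPM (median 29.2) in Core Ctx_Coc and 28.5 to 41.3 CPM (median 37.5) in Core Ctx_Sal. All 7 Ctx_Coc libraries were below the Ctx_Sal median, although the ranges overlapped, and the log2 fold change was −0.27 ± 0.07 (edgeR adjusted p = 0.433). Core Ext_Sal averaged 29.8 ± 1.81 CPM, against 36.3 ± 4.41 CPM in Core Ctx_Sal (SD, n = 7 each). The log2 fold change of Ext_Sal against Ctx_Sal was −0.27 ± 0.07. These 2 comparisons share the Ctx_Sal libraries.

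Kcnj3 had the lowest p in Shell for Ctx_Coc against Ctx_Sal. It was at 33.8 to 44.4 CPM (median 37.8) in Shell Ctx_Coc and 35.4 to 95.6 CPM (median 47.3) in Shell Ctx_Sal, where 1 library (4-17) stood apart at the top. The log2 fold change was −0.50 ± 0.15 (edgeR adjusted p = 0.731). In Core the gene spread most in Ctx_Sal too, with 17.3 to 64.5 CPM.

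Kcnv1 led the Shell comparison of Ext_Coc with Ext_Sal. It was at 4.16 to 13.3 CPM (median 5.03) in Ext_Coc and 2.80 to 6.94 CPM (median 3.59) in Ext_Sal, and all 7 Ext_Coc libraries lay above the Ext_Sal median. The log2 fold change was 0.64 ± 0.23 (edgeR adjusted p = 0.998), and each group held 1 library far above the rest. The other 6 libraries averaged 5.21 ± 1.28 CPM in Ext_Coc and 3.53 ± 0.515 CPM in Ext_Sal (SD). Against Shell Ctx_Sal (4.01 to 9.51 CPM, median 6.30), Ext_Sal had a log2 fold change of −0.73 ± 0.23.

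Shell Ext_Sal against HC_Sal had the most members at an unadjusted p under 0.05, 17 of 88 or 19.3% (all genes 5.78%). It was led by Kcnj11, a pore subunit of ATP-sensitive channels. Alternatives that used all Shell libraries had 15 to 19 members at that line. Numbered series only had 3 (1282 of 30867 genes) and series F only had 0 (88 of 31288 genes), with fewer libraries in each. Kcnj11 averaged 4.91 ± 1.46 CPM in Ext_Sal and 6.93 ± 0.543 CPM in HC_Sal (SD, n = 7 each), with 6 of 7 Ext_Sal libraries below the lowest HC_Sal library (log2 −0.48 ± 0.17, edgeR adjusted p = 0.633). The smallest adjusted p of a member in any of the 25 comparisons was that of Kcnj9 for Shell Ctx_Coc against HC_Coc. That comparison had only 5 of 88 members at an unadjusted p under 0.05, or 5.68%, beside 15.9% of all genes. Kcnj9 averaged 11.1 ± 1.48 CPM in Ctx_Coc and 14.8 ± 3.36 CPM in HC_Coc (log2 −0.40 ± 0.16, edgeR adjusted p = 0.294), and all 7 Ctx_Coc libraries were below the HC_Coc median.

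**Figure D5:**
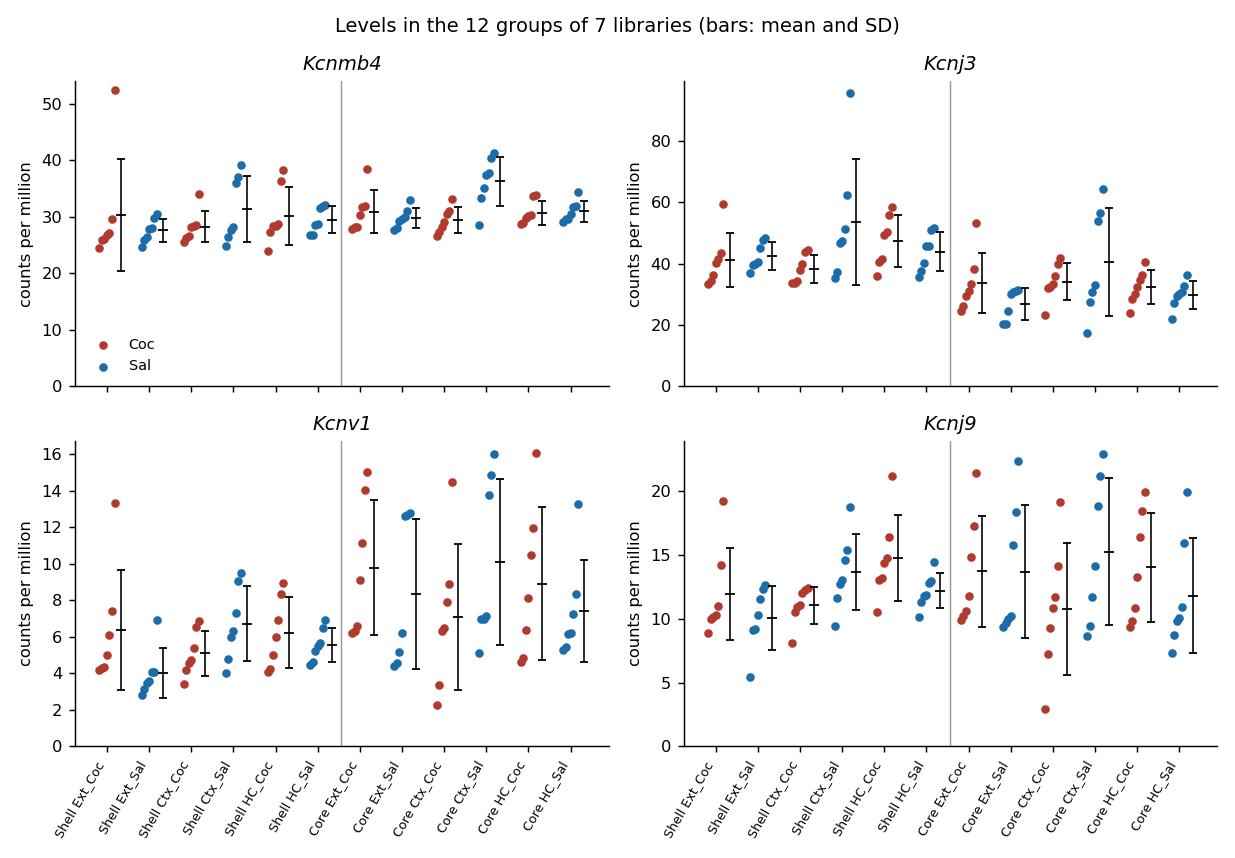
CPM in the 12 groups of 7 libraries for Kcnmb4, Kcnj3, Kcnv1 and Kcnj9, with Coc in red, Sal in blue, and mean and SD as bars. Groups overlap within each subregion, and Core Ctx_Sal is the highest group for Kcnmb4 at a mean of 36.3 CPM.

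Other comparisons had leading members of small size. In Shell, Kcnh4 was at −0.23 ± 0.10 (log2, Ext_Coc against HC_Coc) and Kcnh7 at 0.31 ± 0.14 (Ctx_Sal against HC_Sal). In Shell Ctx_Sal 1 library held Kcnh7 at 217 CPM, and the other 6 averaged 116 ± 13.0 CPM, against 106 ± 19.4 CPM in HC_Sal (SD, n = 7). In Core, Kcna6 was at 0.53 ± 0.25 (Ext_Coc against Ctx_Coc), where 90.7 ± 33.5 CPM in Ext_Coc stood beside 59.3 ± 28.2 CPM in Ctx_Coc (SD, n = 7 each), the lowest Ctx_Coc library being 17-F at 18.4 CPM. That comparison had 3 members at an unadjusted p under 0.05 with 17-F (all genes 9.52%) and 0 without it (all genes 0.951%). Kcnd3 was at 0.18 ± 0.11 for Core Ext_Coc against Ext_Sal, and Kcnc4 at −0.30 ± 0.15 for Core HC_Coc against HC_Sal. None of these values passed.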

How the data were processed

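Total RNA of rat nucleus accumbens Shell and Core was extracted with Direct-zol and made into libraries with the SMARTer Stranded Total RNA-seq Pico v3 kit, per the labels' protocols. The counts deposited by the authors are whole reads per gene, which the submitters' processing notes credit to featureCounts and the build mRatBN7.2. The authors also deposited FPKM values, which follow from those counts with a single length for each gene (100% of 41807 genes checked). For aligner, annotation and strand setting nothing is given in the sources used here, so reads of overlapping or antisense genes (Kcnq1 is such a locus) cannot be told apart. The table had 0 unused columns, and no library pair was identical (highest correlation 0.996).

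Members and lists were chosen with earlier results of these data known. Libraries were grouped by title. Genes kept by edgeR's filterByExpr were scaled by TMM and tested in edgeR 4.0.16 (quasi-likelihood F test, two-sided, R 4.3.3), with p-values adjusted by Benjamini-Hochberg and called under 0.05. Shell against Core used 84 libraries with F against numbered series as a covariate, and comparisons within a subregion used its 42 libraries with series as a covariate. The fits were tested on simulated data. The background covariate is the log2 CPM of 1848 receptor genes.

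Alternatives were DESeq2 1.42.0 and its size factors, no series covariate, no low-count filter, the background covariate, series F only, numbered series only, a replicate block and leaving out libraries. Series F only without 17-F and the background covariate without 17-F were added after seeing the data. In Shell against Core, up to 6 called members of largest change and the 2 of highest level per length were named in each class, and elsewhere the member of lowest p. Members of the role list, partners and markers were also named, and any other member was named after its values were seen. Some members that met this rule are not reported here by name, but counts include them. Sequences and gene order come from RefSeq GRCr8, in which all 88 members were matched and 59 had a promoter. Libraries held 13.6 to 22.5 M counts (M, mega). Errors of CPM, FPKM and shares are the SD between libraries, and errors of log2 fold changes are standard errors of the fit.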

Additional observations from a re-analysis of the deposited data

Results flagged for a closer look

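Of 31 sets of 7 libraries examined for the named members, 3 held a library far from the others, and chance flags about 1 set in 20. Kcnv1 in Shell Ext_Sal had 1 library (4-4) at 6.94 CPM, where the next was at 4.10 CPM and the median of the others was 3.51 CPM. Kcnv1 in Shell Ext_Coc had 1 library (3-2) at 13.3 CPM, where the next was at 7.39 CPM and the median of the others was 4.69 CPM. Kcnh7, of the ERG branch, had 1 library of Shell Ctx_Sal (4-17) at 217 CPM, where the next was at 137 CPM and the median of the others was 118 CPM. Without these libraries the other 6 averaged 3.53 ± 0.515, 5.21 ± 1.28 and 116 ± 13.0 CPM (SD), taken in that order, a calculation added after seeing the data. The receptor rates of these libraries were 0.171, 0.141 and 0.230 FPKM, within the range of the other Shell libraries. Library 3-2 was also highest in its group for Kcnj3 (59.6 CPM), Kcnk9 (55.6) and Kcnmb4 (52.4), and lowest for Kcnj16 (5.05). Library 4-17 was also highest in its group for Kcnj3 (95.6 CPM) and Kcnmb4 (39.2), and lowest for Kcnh2 (22.6). These further members were picked after their values were seen.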

How the results depend on the processing

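With all 84 libraries 35 members passed in Shell against Core. The count was 33 without the series covariate (3948 of 32145 genes called) and 31 without a low-count filter (4046 of 41807 genes). It was 36 with DESeq2 (4613 of 32145 genes) or with its size factors (4298 genes), and 43 without 17-F (all genes 26.3%). It was 54 with the background covariate (all genes 41.3%), and 58 also without 17-F (14125 of 32177 genes). It was 23 in numbered series only (all genes 9.83%), 1 in series F only (0.226%) and 13 in series F only without 17-F (2.1%). Fewer libraries enter the last 3, and the cause of the other shifts was not tested. Of 48 named members, 7 values of called members changed sign, and 34 values in all. With the background covariate the log2 fold changes that changed sign were Kcna1 0.088, Kcnab1 0.071, Kcnab2 0.045, Kcnd2 0.058, Kcnf1 0.32, Kcnj10 0.18, Kcnj11 0.23, Kcnj4 0.025, Kcnj9 0.19, Kcnma1 0.093, Kcnn3 0.092, Kcnq5 0.046, Kcns2 0.094, Kcnt1 0.16. With that covariate and without 17-F they were Kcna1 0.029, Kcnab1 0.058, Kcnab2 0.018, Kcnd2 0.013, Kcnf1 0.26, Kcnj10 0.15, Kcnj11 0.19, Kcnj9 0.16, Kcnma1 0.084, Kcnn3 0.075, Kcnq5 0.011, Kcns2 0.050, Kcnt1 0.11. In series F only they were Kcna2 −0.20, Kcnj8 0.23, and without 17-F there Kcna2 −0.36, Kcnc1 −0.029, Kcnj8 0.32. Without 17-F alone it was Kcna2 −0.016, and with the replicate block Kcnf1 0.050. Numbers shared by Shell and Core libraries did not meet the rule for pairing, a correlation over 0.1 in every pair: 23 of 30 pairs did (−0.19 to 0.53, median 0.24, against −0.011 for other pairings). As a hint from the data and not the design, 10 of 30 correlated best with their own number. On numbered series only, the replicate block called 26 members (3536 of 31976 genes) and the fit without it called 23 (3143 genes). Within subregions, 0 members passed in any of 190 alternative fits of the 25 comparisons. Depth limits the lowest members, and the background rate limits those near the receptor level.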

Other observations

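Kcnh8 was not called by edgeR in Shell against Core over all 84 libraries (log2 0.41), but was called higher in Shell without 17-F (0.49) and with the background covariate (0.14). It averaged 69.1 ± 17.3 CPM in Shell and 53.6 ± 30.3 CPM in Core (SD, n = 42 each), and its highest Core library, 147 CPM, was 17-F. The gene was named after its values were seen.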
